A study of Homo sapiens with 2 samples.

Results

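The genes of the eukaryotic translation initiation factors (eIFs) were examined for peaks of histone H3 lactylated at lysine 18 (H3K18la) in H1299 cells, an established line from a human lung carcinoma of the non-small cell kind. They were chosen by symbol, as protein-coding RefSeq genes of GRCh38 named EIF1 to EIF6 with any letters or digits after it, leaving out the 4 eIF2α kinase genes EIF2AK1 to EIF2AK4 and the Y-linked EIF1AY. This gave 51 of 19866 protein-coding genes, and the rule uses no measured value. The series holds 1 library of chromatin immunoprecipitated with the antibody against H3K18la and 1 input library from the same line, with no further treatment named in the labels. The control is called IgG in the series' design text but input in the sample labels. The analysis rests on the broad peak list of the immunoprecipitated library (28695 peaks), so that there are no replicates, no test across libraries and no p-values, and the read depth is unknown. A gene without a peak is one with no peak in this list, which does not show that it lacks the mark.

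Initiation factors bring the small ribosomal subunit, the initiator methionyl-tRNA and the mRNA together at a start codon. The eIF4F complex (the cap-binding protein eIF4E, the scaffold eIF4G and the helicase eIF4A) loads the mRNA at its 5′ cap, eIF3 bridges mRNA and ribosome, eIF2 carries the initiator tRNA in a GTP-bound complex, eIF2B reloads eIF2 with GTP, and eIF5B joins the large subunit. Supply of eIF4E is limited by the eIF4E-binding proteins, which mTOR inactivates by phosphorylation, and eIF4F is often raised in tumours. Lactylation is a lactate-derived acylation of histone lysines.

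H3K18la peaks lay at an end of most initiation factor genes. Of the 43 genes with a known strand, 34 had one at the 5′ end (79.1%), against 59.5% of all protein-coding genes with a known strand. A peak at the 3′ end was found in 6 of the 43 (14%), against 7.62%. Only 1 of the 43 had a peak at the 3′ end and none at the 5′ end (2.33%, against 1.56%), too few to compare. A peak within 1000 bp of an end was found at 42 of the 51 genes (82.4%, exact Clopper-Pearson 95% interval 69.1 to 91.6, counting error only), against 59.1% of all protein-coding genes. EIF4ENIF1 alone had a peak only in the body (1.96%), against 7.6% of all protein-coding genes. A peak in the gene or its end windows was found at 43 of 51 genes (84.3%), against 66.7%, and 8 genes (15.7%) had none, against 33.3%. By group median, the scaffold genes (12.4-fold) and the helicase genes (8.05-fold) were highest, and the 3 highest folds of single genes were at EIF4G1 (13.9), EIF4A1 (13.7) and EIF4G3 (12.4). The genes of the exchange factor eIF2B had 3.0-fold to 6.50-fold. The eIF3 genes ranged from no listed peak (EIF3C, EIF3CL and EIF3F) to 9.36-fold (EIF3J).

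Upstream sequences are shown for some genes with strong, weak, displaced or missing peaks, from RefSeq (GRCh38.p14), each the 250 bases before the annotated start, 5′ to 3′ on the gene's strand. Capitals mark matches on either strand to any of 7 motifs, and overlapping matches share capitals. The E-box was searched as CACGTG. The CCAAT box was searched as those 5 letters. The TATA box was searched as TATAAA. The ETS motif was searched as CCGGAAGT. The GC box was searched as GGGCGG. YY1 was searched as AAGATGGCG, and the palindromic motif of NRF1 was the last of the 7. The scaffold, cap-binding and helicase-cofactor genes EIF4G1, EIF4E and EIF4H have E-boxes and strong peaks:
EIF4G1 (chr3:184314356-184314605, plus strand): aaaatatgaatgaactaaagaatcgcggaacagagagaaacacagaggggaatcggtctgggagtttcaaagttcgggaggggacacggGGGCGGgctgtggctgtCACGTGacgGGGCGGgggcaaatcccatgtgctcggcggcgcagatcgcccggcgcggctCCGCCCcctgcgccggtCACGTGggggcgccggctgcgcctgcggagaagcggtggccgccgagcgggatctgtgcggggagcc
EIF4E (chr4:98929134-98929383, minus strand): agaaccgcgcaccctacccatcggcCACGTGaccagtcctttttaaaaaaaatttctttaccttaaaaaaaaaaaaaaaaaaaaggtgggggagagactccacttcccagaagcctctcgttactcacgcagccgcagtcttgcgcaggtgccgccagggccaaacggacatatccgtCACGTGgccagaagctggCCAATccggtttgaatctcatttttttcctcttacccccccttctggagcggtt
EIF4H (chr7:74174106-74174355, plus strand): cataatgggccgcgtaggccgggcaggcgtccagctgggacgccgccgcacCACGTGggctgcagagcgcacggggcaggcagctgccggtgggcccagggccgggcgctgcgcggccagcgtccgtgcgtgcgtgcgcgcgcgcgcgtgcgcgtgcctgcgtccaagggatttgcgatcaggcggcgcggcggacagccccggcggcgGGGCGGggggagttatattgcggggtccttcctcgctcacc
EIF4A1 and EIF5, likewise with strong peaks, have CCAAT and GC boxes and no E-box:
EIF4A1 (chr17:7572575-7572824, plus strand): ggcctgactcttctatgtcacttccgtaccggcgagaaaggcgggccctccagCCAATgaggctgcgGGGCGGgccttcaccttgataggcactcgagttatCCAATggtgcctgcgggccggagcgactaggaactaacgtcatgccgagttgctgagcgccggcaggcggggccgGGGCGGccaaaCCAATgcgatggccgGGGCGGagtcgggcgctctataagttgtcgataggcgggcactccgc
EIF5 (chr14:103333987-103334236, plus strand): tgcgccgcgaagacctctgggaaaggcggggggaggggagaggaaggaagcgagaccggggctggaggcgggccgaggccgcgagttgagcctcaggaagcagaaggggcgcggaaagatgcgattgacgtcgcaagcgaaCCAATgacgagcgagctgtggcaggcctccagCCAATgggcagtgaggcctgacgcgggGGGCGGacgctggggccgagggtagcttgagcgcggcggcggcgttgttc
EIF2B1 is the gene whose strongest end peak has the lowest fold of the 42, and EIF4ENIF1 has its peak over the start shown here, inside the gene entry:
EIF2B1 (chr12:123633687-123633936, minus strand): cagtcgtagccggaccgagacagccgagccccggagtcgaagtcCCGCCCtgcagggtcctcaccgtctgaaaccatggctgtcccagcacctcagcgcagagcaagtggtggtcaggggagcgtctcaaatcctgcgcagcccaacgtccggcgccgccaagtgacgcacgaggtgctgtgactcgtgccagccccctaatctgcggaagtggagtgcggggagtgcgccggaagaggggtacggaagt
EIF4ENIF1 (chr22:31489843-31490092, minus strand): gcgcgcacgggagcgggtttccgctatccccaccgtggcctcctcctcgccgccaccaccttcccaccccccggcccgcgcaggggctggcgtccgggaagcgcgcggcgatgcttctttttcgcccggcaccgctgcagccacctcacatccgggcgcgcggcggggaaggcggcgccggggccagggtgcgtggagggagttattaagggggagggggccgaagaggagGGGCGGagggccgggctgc
EIF3F, which also has an E-box, and EIF3C, which has no match to the 7 motifs, have no listed peak:
EIF3F (chr11:7987087-7987336, plus strand): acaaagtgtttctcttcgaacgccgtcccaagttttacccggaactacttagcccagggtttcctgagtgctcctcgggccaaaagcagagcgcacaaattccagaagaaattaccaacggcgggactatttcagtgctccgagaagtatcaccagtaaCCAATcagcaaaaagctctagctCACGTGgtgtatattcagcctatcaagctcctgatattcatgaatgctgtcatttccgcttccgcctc
EIF3C (chr16:28688308-28688557, plus strand): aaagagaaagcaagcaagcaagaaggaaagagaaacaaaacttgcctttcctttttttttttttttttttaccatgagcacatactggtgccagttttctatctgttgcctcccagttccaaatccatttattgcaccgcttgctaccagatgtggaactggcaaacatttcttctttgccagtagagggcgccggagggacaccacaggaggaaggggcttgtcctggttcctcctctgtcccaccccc

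Fold enrichment, as deposited, is the mean over a broad peak of the ratio of the immunoprecipitated library to the local background of the caller. For each gene the end peak of highest fold was taken. Over the 42 genes with an end peak the median fold was 6.15 (quartiles 4.97 and 9.20, range 3.0 to 13.9), against a median of 5.66 (4.42 and 7.19) over the 11744 protein-coding genes with an end peak. The distribution was spread upward: a fold of 10 or more was reached by 8 of 51 genes (15.7%), against 3.74% of all protein-coding genes, and 12 of the 42 peaks lay in the highest 10% of gene-end peaks by fold. A fold at or above the median of all 28695 peaks (4.36) was reached by 36 of 51 genes (70.6%), against 45.0%. A -log10 q of at least 5 was reached by 40 of 51 (78.4%), against 52.3%. The shares of 51 count genes without an end peak, so they also carry the difference in how many genes had one. Among genes with an end peak, 8 of 42 reached 10-fold, against 742 of 11744. The median fold of all peaks was reached by 36 of 42, against 8935 of 11744, and the q threshold by 40 of 42, against 10397 of 11744. Of the 42, 25 lay above the all-gene median of 5.66. At the other side, 4 peaks (EIF2B1, EIF3H, EIF3K and EIF5B) lay in the lowest 10%. Peaks were also somewhat wider, with a median of 1697 bp, against 1421 bp over all protein-coding genes with an end peak, and 30 of 42 were wider than that median. The median -log10 q was 17.2, against 13.6 over all such genes.

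**Figure D1:**
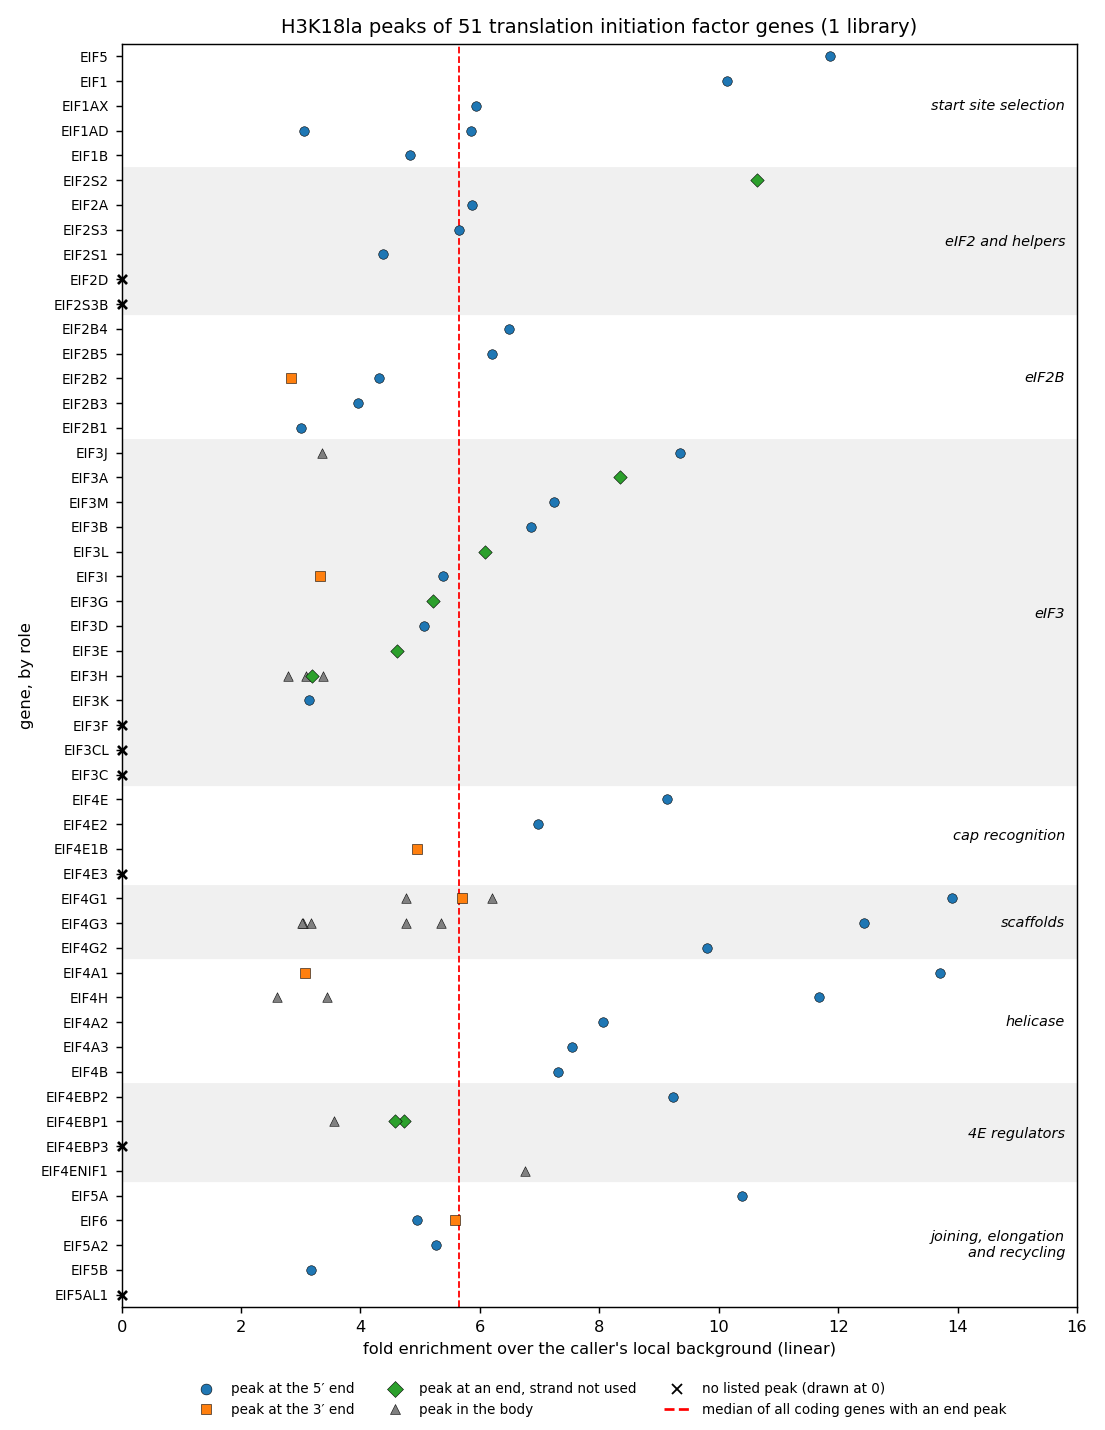
Fold enrichment of every H3K18la peak (horizontal axis, linear, over the caller's local background) at each of the 51 initiation factor genes (vertical axis, by role), with the symbol showing where in the gene the peak lies and crosses for genes with no listed peak. The dashed line is the median of all protein-coding genes with an end peak (5.66); all scaffold and helicase genes lie to its right with their 5′ peak, from 7.31 to 13.9.

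**Figure D2:**
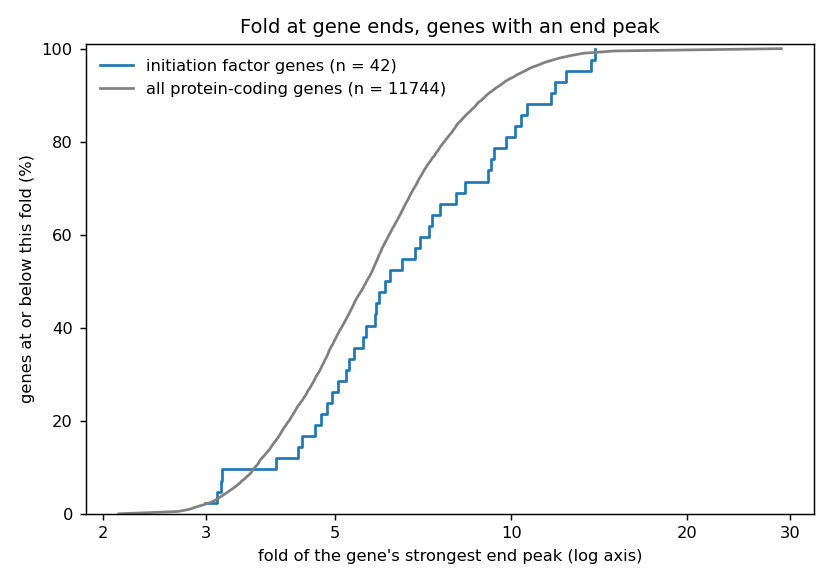
Cumulative share of genes (vertical axis, percent) by the fold of their strongest end peak (horizontal axis, log scale) for the 42 initiation factor genes and the 11744 protein-coding genes with an end peak. The curves cross at low folds: near 3.20, that of the initiation factor genes lies above, with EIF2B1, EIF3K, EIF5B and EIF3H. From the lower quartile to the upper quartile it lies to the right, and near the highest folds the curves come close again. For the initiation factor genes and all genes, the lower quartiles are 4.97 and 4.42 and the medians 6.15 and 5.66. Of these values, the upper quartiles, 9.20 and 7.19, lie furthest apart.

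By fold, the genes that recognise the cap and unwind the mRNA were led by the scaffolds. EIF4G1, the main eIF4G scaffold, had the highest fold of all 51 genes, 13.9 over 2062 bp (chromosome 3, 184314223 to 184316284, -log10 q 68.1), above 99.3% of protein-coding genes with an end peak. This peak covered 2 of its 3 listed starts, and the remaining start lay under a separate body peak of 6.20-fold. EIF4G3, the second full-length eIF4G, had 12.4-fold (chromosome 1, 21175646 to 21177397). EIF4G2, whose product lacks the eIF4E-binding site and serves cap-independent initiation, had 9.80-fold. All 3 scaffold genes were thus above the all-gene median, and in each the 5′ peak did not reach another coding gene's end.

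Among the helicase genes, EIF4A1 had 13.7-fold (chromosome 17, 7572101 to 7573754), in a peak that also lay at an end of SENP3. Its paralogue EIF4A2 had 8.05-fold, and EIF4A3, the exon junction complex helicase, had 7.54-fold. The helicase cofactor gene EIF4H had 11.7-fold over 1750 bp, and the cofactor gene EIF4B had 7.31-fold over 3382 bp, the widest end peak of the family. No helicase gene lacked a peak, and all 5 were above the all-gene median of 5.66.

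The cap-binding genes were uneven. EIF4E, the canonical cap-binding protein gene, had 9.13-fold over 2410 bp. EIF4E2, which encodes a repressive cap-binding homologue, had 6.97-fold in a peak also at TIGD1. EIF4E1B, an oocyte form, had no peak at its 5′ end, and its single peak (4.94-fold) lay at its 3′ end, which is also an end of TSPAN17. EIF4E3, an atypical cap-binding protein gene, had no listed peak. The 12 genes of these 3 groups had a median fold of 9.13 over the 11 with an end peak, and 10 of these 11 lay above the all-gene median. This grouping was made after the values were seen.

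Of the genes that restrain eIF4E, EIF4EBP2 had 9.23-fold (chromosome 10, 70403822 to 70405465). EIF4EBP1, the most studied target of mTOR in translation, had 4.73-fold at its end of lower coordinate and 4.58-fold close to its other end, with another peak of 3.56-fold in the body. EIF4EBP3 had none, and the nearest peak lay 7347 bp away. EIF4ENIF1 encodes the eIF4E transporter of processing bodies. The start given in the promoter table lies inside its gene entry, and a peak of 6.76-fold covered that inner start (chromosome 22, 31489065 to 31491012).

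Start-site selection genes all had an end peak. EIF5, the GTPase-activating protein of eIF2, had 11.9-fold over 2310 bp (chromosome 14, 103333107 to 103335416, -log10 q 66.8). EIF1, which enforces start codon fidelity, had 10.1-fold, and its paralogue EIF1B 4.83-fold. EIF1AX, which encodes eIF1A, had 5.93-fold. EIF1AD, a relative of eIF1A, was flanked by a peak of 5.85-fold upstream and another of 3.05-fold inside the gene, neither of which covered its start, and both lay at an end of BANF1.

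The eIF2 genes differed from subunit to subunit. EIF2S2, the β subunit gene, had 10.6-fold over 2332 bp (chromosome 20, 34111045 to 34113376). EIF2S3, the γ subunit gene on the X chromosome, had 5.65-fold, and EIF2S1, whose α subunit is the target of the stress kinases, had 4.38-fold in a peak also at ATP6V1D. EIF2S3B, a close relative of EIF2S3, had no listed peak. The tRNA-binding factor gene EIF2A had 5.86-fold, shared with SERP1, and EIF2D, a factor of non-canonical initiation and ribosome recycling, had none, its nearest peak lying 11434 bp away.

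All 5 genes of eIF2B, the exchange factor that reloads eIF2 with GTP and is mutated in vanishing white matter disease, had an end peak, with a median of 4.32-fold. EIF2B4 had 6.50-fold (shared with SNX17), EIF2B5 6.21-fold, EIF2B2 4.32-fold and EIF2B3 3.96-fold. EIF2B1 had 3.0-fold over only 334 bp (chromosome 12, 123633908 to 123634241, -log10 q 2.53). That peak lay wholly upstream, ending 222 bp before the annotated start, and it also lay at an end of GTF2H3. No eIF2B gene reached 10-fold, and 2 of 5 lay above the all-gene median.

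The eIF3 genes form the largest group, and 11 of 14 had an end peak with a median of 5.38-fold. EIF3J, a loosely attached subunit gene, had 9.36-fold, EIF3A, the largest core subunit gene, 8.35-fold, EIF3M 7.25-fold, EIF3B 6.85-fold and EIF3L 6.08-fold. Below the all-gene median were EIF3I (5.38-fold), EIF3G (5.21-fold), the cap-binding subunit gene EIF3D (5.06-fold), EIF3E (4.61-fold), EIF3H (3.20-fold) and EIF3K (3.13-fold). The shared neighbours were TMEM234 for EIF3I, SNX8 for EIF3B, ANKRD54 for EIF3L, UTP23 for EIF3H and MAP4K1 for EIF3K. EIF3C, its near-identical copy EIF3CL and EIF3F had no listed peak. How the authors placed reads that match several copies is not given in the sources used here, so the values of EIF3C and EIF3CL, of EIF5AL1 beside EIF5A, and of EIF2S3B beside EIF2S3 carry that limit.

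Among the genes of subunit joining, elongation and ribosome release, EIF5A, the hypusine-bearing factor that relieves stalled ribosomes, had 10.4-fold over 2852 bp and the peak covered all 6 of its listed starts. Its paralogue EIF5A2 had 5.27-fold, and the copy EIF5AL1 none. EIF5B, the GTPase of subunit joining, had 3.18-fold with a -log10 q of 4.90, in a peak also at TXNDC9. EIF6, which keeps the large subunit from joining too early, had 4.95-fold at its 5′ end, also at FAM83C, and 5.58-fold beside its 3′ end, also at MMP24, MMP24OS and MMP24-AS1-EDEM2.

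The promoter table gave the strand and start of 43 of the 51 genes. Of these 43, 34 had a peak at the 5′ end (79.1%), against 59.5% of all protein-coding genes with an entry, and 6 at the 3′ end (14%), against 7.62%. Both ends had a peak in 5 genes (11.6%), against 6.06%, and EIF4E1B had one at the 3′ end and none at the 5′ end (2.33%), against 1.56%. Of all 51 genes, 7 had at least 2 end peaks (13.7%), against 6.1%. A listed start lay under a peak in 33 of 43 genes (76.7%), against 53.3%. The 8 genes without an entry (EIF2S2, EIF3A, EIF3CL, EIF3E, EIF3G, EIF3H, EIF3L and EIF4EBP1) do not enter the counts out of 43. Of the 34 strongest 5′ peaks, 32 spanned the 5′ end itself, and the exceptions were EIF1AD and EIF2B1, whose peaks also lay at BANF1 and GTF2H3. Counted from the 5′ end, with upstream negative, the median edges were -734 and 863 bp, and 16 of 34 reached further into the gene than upstream. EIF4B reached furthest upstream (-2487 bp) and EIF5A furthest into the gene (2321 bp).

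**Figure D3:**
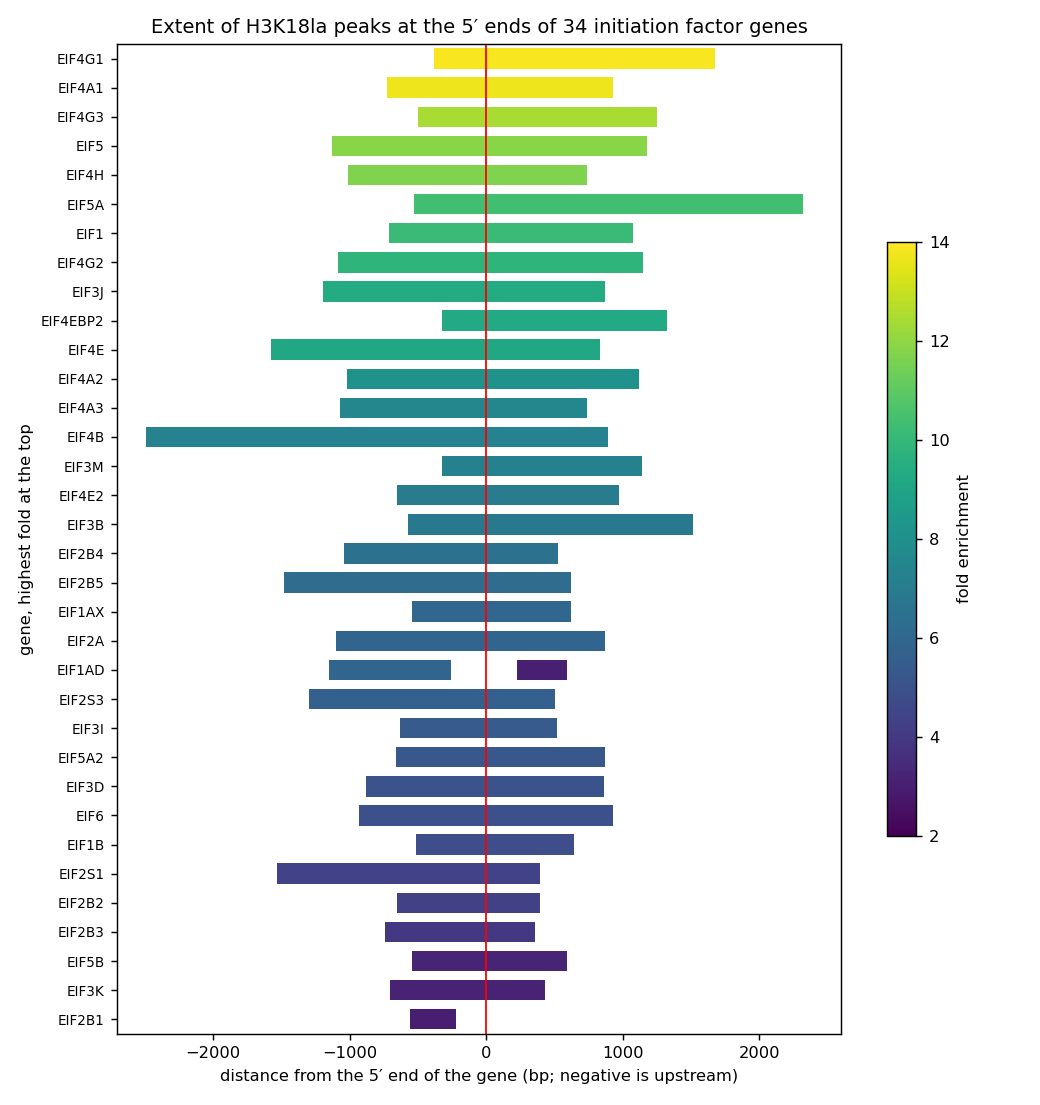
Extent of the peaks at the 5′ end of 34 initiation factor genes, as distance from the annotated 5′ end (horizontal axis, bp, negative upstream), a row per gene in order of fold and coloured by fold enrichment. All bars but those of EIF1AD and EIF2B1 cross the 5′ end; the widest is that of EIF4B (3382 bp).

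The 6 peaks at 3′ ends had folds of 2.84 to 5.70 with a median of 4.13, against a median of 5.05 for the 1001 peaks at the 3′ ends of all protein-coding genes. At the 5′ ends, the strongest peak had a median of 6.67-fold over the 34 initiation factor genes, against 5.59-fold over all protein-coding genes. Of the 6 peaks at 3′ ends, 4 also lay at an end of another coding gene, against 61.7% of such peaks over all protein-coding genes. These other genes were FAM131A beyond EIF4G1, CD68 beyond EIF4A1, TSPAN17 beyond EIF4E1B and the MMP24 genes beyond EIF6. The peaks near the 3′ ends of EIF3I (3.32-fold) and EIF2B2 (2.84-fold) lay at no other coding gene. Inside 7 of the 51 genes there were 15 body peaks. The share of all protein-coding genes that hold a body peak was not worked out, so this count is not compared. The 15 body peaks had a median of 3.37-fold, against 3.91-fold for body peaks of all protein-coding genes. EIF4G3, the longest gene of the family (370606 bp), held 5 of them, EIF3H 3, EIF4G1 and EIF4H 2 each, and EIF3J, EIF4EBP1 and EIF4ENIF1 1 each.

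Sharing with neighbours was about as frequent as in the genome at large. The end peak taken for the gene also lay at another coding gene's end in 15 of 42 cases (35.7%), against 32.9% over all protein-coding genes with an end peak. Of the genes with no other coding gene end within 5000 bp of either of their own, 15 of 21 had an end peak (EIF4G1 and EIF4A1 are not among the 21), against 47.7% of all such genes. Near the limit of the window, the end peaks furthest from an end were the 3′ peak of EIF2B2 at 971 bp and the second end peak of EIF4EBP1 at 888 bp, and the closest body peaks were those of EIF4G1 at 1782 bp and EIF4EBP1 at 2243 bp from an end.

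The 8 genes without a peak lay in peak-free stretches of very different length. Neighbouring peaks in the list were separated by a median of 27.4 kb. EIF3F, which encodes a core eIF3 subunit, lay in a stretch of 1650 kb on chromosome 11 (7020073 to 8670469) that held 18 coding genes and no peak, longer than 99.3% of all such stretches. EIF4E3 lay in one of 3156 kb on chromosome 3 (69182782 to 72338802), which also held MITF and FOXP1. EIF5AL1 lay in one of 633 kb beside the surfactant genes SFTPA1, SFTPA2 and SFTPD, EIF3C in one of 267 kb and EIF3CL in one of 199 kb, both with NPIPB genes. EIF2S3B lay in one of 216 kb among natural killer receptor genes, EIF4EBP3 in one of 154 kb and EIF2D in one of 76.9 kb.

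The background against which the caller set each peak varied across the family. It was worked out for each peak as the Poisson mean that gives both the deposited fold and the deposited -log10 p, in scaled reads, and is approximate because a broad peak's values are means. Over all peaks its median was 3.83. It was highest at EIF6 (10.9), EIF2S1 (9.59), EIF3K (8.90), EIF3B (8.71) and EIF3H (8.02), and lowest at the X-linked EIF2S3 (2.78) and EIF1AX (2.98) and at EIF3L (2.93). The background and places given for EIF6 are those of its strongest end peak. That peak lies beside its 3′ end and also at MMP24, MMP24OS and MMP24-AS1-EDEM2. The 5′ peak of EIF6 had a fold of 4.95 and a background of 9.80. Around EIF3K and EIF2S1 the median background of all peaks within 2500 kb was also high (10.3 and 8.68). The fold of these genes was measured against more background reads: EIF6 stood at place 27 of 42 by fold and at place 9 by the solved pileup minus background, EIF2S1 at places 36 and 19, and EIF3B at places 19 and 7. EIF2S3 went the other way, at places 26 and 39, as did the scaffold genes EIF4G3, at places 3 and 10, and EIF4G2, at places 9 and 15. EIF4G1, EIF4A1, EIF5, EIF4H and EIF2S2 were among the first 6 by either measure, EIF5 being first by pileup minus background, and EIF2B1 was last by both.

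**Figure D4:**
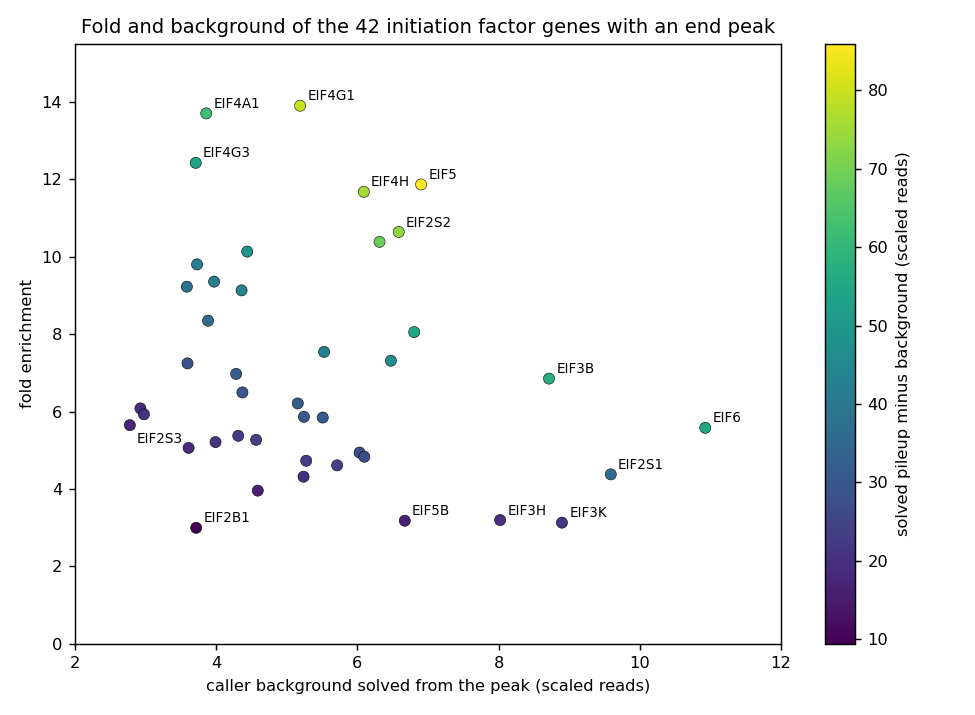
Fold enrichment (vertical axis) against the caller's background solved for the same peak (horizontal axis, scaled reads) for the 42 initiation factor genes with an end peak, coloured by the solved pileup minus the background. EIF6, EIF2S1 and EIF3K lie at the right with backgrounds of 8.90 to 10.9. EIF4A1 (3.86) and EIF4G3 (3.71) combine a high fold with a background near the median of all peaks (3.83). EIF6 is drawn by the peak beside its 3′ end, which has a higher fold than its 5′ peak.

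Upstream sequence of the family was described for the 43 genes with a promoter entry, 1 promoter per gene, the start nearest the 5′ end of the gene entry being used. CACGTG, the E-box bound by MYC with MAX and by related factors, was found in 11 of 43 (25.6%), against 7.80% of 15843 protein-coding genes. These were EIF1B, EIF2B3, EIF3F, EIF3K, EIF4A3, EIF4B, EIF4E, EIF4EBP3, EIF4G1, EIF4H and EIF5A2. EIF4G1, EIF4E and EIF5A2 had 2 each, as the sequences of EIF4G1 and EIF4E above show. The E-box genes covered the whole range of the mark, from EIF4G1 at 13.9-fold to EIF3K at 3.13-fold, and EIF3F and EIF4EBP3 had no peak. The E-box was present in 9 of 35 genes with a peak at either end of the gene and in 2 of 8 without an end peak. This split does not ask whether the peak lay at the promoter searched.

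The GC box was found in 72.1% of the 43 promoters (against 55.8% of all), the CCAAT box in 39.5% (against 34.5%), the ETS motif in 11.6% (against 5.09%) and the TATA box in 4.65% (against 9.35%). The NRF1 motif was found in none of the 43 (against 1.49%), nor was the YY1 motif (against 0.757%). These are matches of letters and do not show binding. The observed over expected ratio of CpG had a median of 0.918 in the 35 genes with a peak at an end (lowest 0.672), 0.705 in the 8 without (range 0.0992 to 0.956) and 0.735 over all protein-coding genes. This split is by a peak at either end of the gene entry, and not by a peak over the promoter scored. EIF4ENIF1 (0.900) is among the 8 although a body peak covers the start used. EIF4E1B (0.954) is among the 35 although its only peak lies at its 3′ end. EIF5AL1 (0.0992) and EIF3C (0.221) had the lowest values of the family, and EIF3F, EIF2D and EIF4E3 had 0.845, 0.750 and 0.956.

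**Figure D5:**
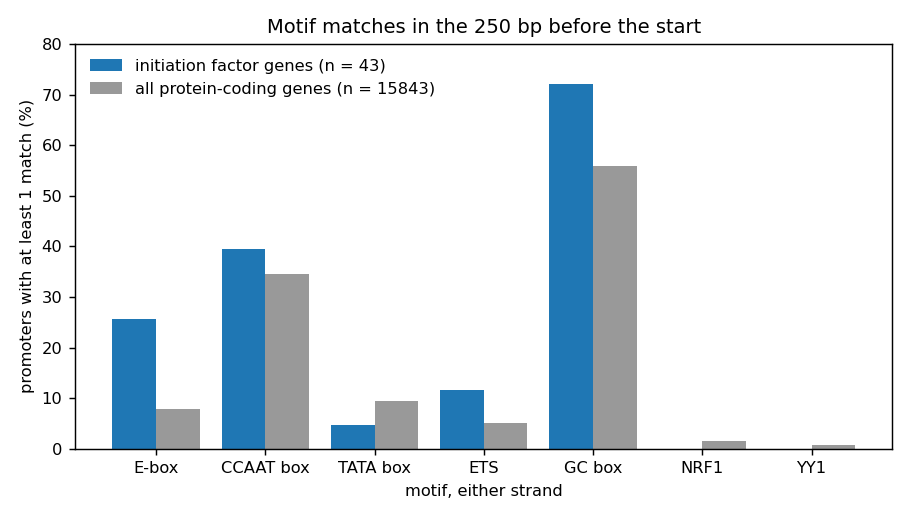
Share of promoters (vertical axis, percent, from 0) with at least 1 match on either strand to each motif in the 250 bp before the start, for 43 initiation factor genes (left bars) and 15843 protein-coding genes (right bars). The bars of the E-box are 25.6% and 7.80%, and those of the GC box 72.1% and 55.8%.

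Of the initiation factor genes, 6 hold a whole small nucleolar RNA gene inside them (EIF3A, EIF4A1, EIF4A2, EIF4G1, EIF4G2 and EIF5), and all 6 had an end peak, of 8.05-fold to 13.9-fold with a median of 10.8. The 45 that hold none had a median of 5.86-fold over the 36 with an end peak. Over all 523 protein-coding genes that hold such a gene, 77.1% had an end peak and the median fold was 5.95, near the 5.66 of all protein-coding genes with an end peak. The comparison was chosen after the values were seen and no test was made.

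All 40 genes of a list of regulators, elongation, release and mitochondrial initiation factors had a peak at an end, against 59.1% of all protein-coding genes (exact 95% interval of the share of the list 91.2 to 100%). The list was chosen with earlier results of these data known, so the count and its interval describe this list only. The 40 genes had a median fold of 6.05 (range 2.81 to 11.6). The highest were PAIP1, which binds poly(A)-binding protein and eIF4A (11.6-fold), CYFIP1, an eIF4E-binding partner of FMRP (10.9-fold), EEF1A2, an elongation factor form known from neurons and muscle (9.90-fold), and ATF4, the transcription factor translated when eIF2α is phosphorylated (9.59-fold, also at MIEF1). Counting peaks only from a -log10 q of 5 upward, the number was 36 of 40, against 52.4% of all protein-coding genes under that rule. With the median fold of all peaks as a minimum it was 29 of 40, against 45.0%.

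Of 14 marker genes for the cell line, 8 had a peak at an end (57.1%), close to the 59.1% of all protein-coding genes, so that the count says little about the cells. By class, 6 of 9 of the lung epithelium (NKX2-1, SFTPC, NAPSA, KRT7, KRT8 and KRT18, with 1 peak for KRT8 and KRT18 and a peak of SFTPC also at BMP1) and both of the mesenchymal state (VIM and ZEB1) had a peak at an end. SFTPB, EPCAM and CDH1 had none, nor had the blood and endothelial genes PTPRC, CD3E and PECAM1 at an end. CDH1 and PTPRC each held 1 body peak (3.98-fold and 3.60-fold), and PECAM1 held 4 (up to 7.30-fold), which the end windows do not count. A peak describes chromatin and not expression.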

How the data were processed

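Per the submitters' processing notes, bcl2fastq 2.17, cutadapt 1.18, Trimmomatic 0.38, Bowtie2 2.3.4.1, Picard, MACS2 (2.1.2 and 2.1.0 are both listed) and ChIPseeker were used with hg38. Their settings, and the control used in peak calling, are not given in the sources used here. The deposited peaks came as a MACS2 broadPeak table with no header line. Its deposited fold enrichment is a ratio to the caller's local background, and the deposited significance is a -log10 p and a -log10 q (largest q 0.0472). The deposited score is -log10 q times 10 with its decimals dropped (true of 99.98% of peaks) and was not used further. Fold of a broad peak is a mean over its length, so that wide peaks with a strong centre have lower values.

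Gene positions came from the RefSeq table of GRCh38.p14, which gives no strand. Of 59679 placed entries, 718 were left out because their start fell back in the listed order along the chromosome. These were taken to lie on alternate or unlocalised sequences. Strand and start came from the promoter table, which holds 15843 of the 19866 protein-coding genes. A peak counted at an end where it overlapped, by 1 bp or more, a window of 1000 bp either side of that end. Body peaks overlapped the gene but no window. Exons and untranslated regions were not assigned. Other windows, overlap rules, thresholds and subsets were tried. Code was tested on simulated peaks. Python 3.11.15, pandas 2.3.3 and scipy 1.17.1 were used. Every member of the family is named, as are the 4 regulators of highest fold. The members and the lists (initiation factors by role, regulators, cell markers, motifs) were chosen with earlier results of these data known. Intervals over genes cover counting error only.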

Additional observations from a re-analysis of the deposited data

How the results depend on the processing

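The number of initiation factor genes with an end peak stayed between 36 and 43 of 51 under a window of 500 or 3000 bp, the midpoint rule, the rule that at least 50% of the peak lie in the window, a -log10 q of at least 5 and the median fold of all peaks as a minimum, while the share of all protein-coding genes lay between 45.0% and 62.4%. The median fold stayed between 6.15 and 6.91 and the median width between 1697 and 1783 bp under all alternatives tried. For all protein-coding genes, only the share with an end peak was worked out under changed rules. It was 62.4% with 3000 bp, 52.4% with a -log10 q of at least 5 and 45.0% with the median fold as a minimum. Among genes with no other coding gene end within 5000 bp it was 47.7%. The other counts below have no such share and describe only the genes listed. With 3000 bp, no gene had a peak only in the body, since EIF4ENIF1 counted at an end, and 11 of 43 had a 3′ peak. With peaks below a -log10 q of 5 left out, 3 of 43 had a 3′ peak, and EIF2B1 and EIF5B had no peak. With the median fold as a minimum, 3 of 43 had a 3′ peak and 14 of 51 genes had no peak. Among the 21 genes with no other coding gene end within 5000 bp, 15 had an end peak, 0 had a peak only in the body, 0 shared it, 13 of 18 had a 5′ peak and 0 a 3′ peak, 6 of 21 had no peak, and 15 of 15 regulators had an end peak; the absence of shared peaks is set by this filter, and the cause of the other changes was not tested. Without the copies EIF3CL, EIF5AL1 and EIF2S3B, 5 of 48 genes had no peak. Within 1000 bp of any listed start, an alternative chosen after seeing the data, 35 of 43 genes had a peak. No paired analysis was possible because each group holds 1 library, and for the same reason no library could be left out. The depth is unknown, so weak or missing peaks cannot be read as loss of the mark.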

Other observations

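EIF2B5, EIF4G1 and EIF4A2 lie near each other on chromosome 3 (starts at 184135358, 184314606 and 186783577) and had 6.21-fold, 13.9-fold and 8.05-fold, with backgrounds solved for these peaks of 5.15, 5.19 and 6.80. EIF5A and EIF4A1, on chromosome 17 (starts at 7306999 and 7572825), had 10.4-fold and 13.7-fold, with backgrounds of 6.31 and 3.86. Across the 42 genes with an end peak, fold and width had a Spearman correlation of 0.639, and fold and the solved background -0.19, given as a description over genes of 1 library.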
